A study of Mus musculus with 8 samples.

Results

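The clustered protocadherin genes were read from 2-colour expression arrays that set mice lacking Tet1 (KO) against wild-type (WT) mice in 2 brain tissues, cortex and hippocampus. They were taken as every gene whose name on the array starts with Pcdha, Pcdhb or Pcdhg and ends in a number, each read from its brightest probe. That gave 35 of 23688 named genes, 7 in the alpha cluster, 22 in the beta cluster (Pcdhb1 to Pcdhb22) and 6 in the gamma cluster. Other genes of the alpha and gamma clusters were not analysed here. The 35 genes lie side by side on mouse chromosome 18, from the Pcdha4 probe at position 37114742 to the Pcdhga9 probe at position 38001437 (mm9), and all 35 probes lie on the plus strand.

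Clustered protocadherins are cell adhesion proteins of the neuronal surface. A neuron transcribes a small, partly random set of them, and the set gives the cell an identity by which its own branches avoid one another. Each variable exon has its own promoter, and which promoters are active depends on DNA methylation, on the insulator protein CTCF and on cohesin. In the alpha and gamma clusters a variable exon is spliced to constant exons shared by the cluster, whereas a beta gene is a single exon with no shared part. Tet1 is a dioxygenase that oxidises 5-methylcytosine, so the comparison of KO with WT asks whether these methylation-dependent genes differ without it.

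The 8 samples form 4 groups of 2: WT cortex, KO cortex, WT hippocampus and KO hippocampus. All came from naive mice of the mixed background given as 129 C57BL6. The labels state neither the age of the mice, nor which part of Tet1 is deleted, nor whether samples come from separate animals, so a p-value here measures the spread between these samples alone, and that spread may be technical. Each array carried a WT sample labelled with Cy3 and the KO sample of the same tissue and number labelled with Cy5, and dyes were never swapped, so for each probe a dye bias and an effect of genotype cannot be told apart. In whole tissue, fewer cells of a type and less RNA per cell cannot be told apart either.

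Between 49.7% and 51.7% of the spots were well above background in Cy3 and between 66.6% and 67.2% in Cy5, and 16773 genes were tested, 30 of them clustered protocadherins. Tet1, read from its brightest probe, was lower in KO on all 4 arrays (log2 ratios -0.18, -0.20, -0.23 and -0.10), but neither the cortex mean (-0.19 ± 0.07 SE, adjusted p = 0.224, limma) nor the hippocampus mean (adjusted p = 0.234) passed. Of the 2 further Tet1 probes, 1 was also lower in KO (8.28 to 8.33 in WT and 8.03 to 8.12 in KO, log2 signal) and 1 was higher in KO on all 4 arrays (7.58 to 7.60 and 7.74 to 7.86), the latter well above background in all 4 KO samples and in no WT sample. Whether any of these probes lies in the deleted part is not known, so they do not settle the labels. Of the cortex markers, 6 of 8 were higher in cortex and 1 was lower in both genotypes, and 6 of 7 hippocampus markers tested were lower in cortex in both genotypes, while the other, Wfs1, was higher in cortex in KO (0.27, adjusted p = 0.0409). All 8 striatum markers were also higher in the cortex samples in both genotypes, with a median log2 ratio of 2.61 in WT and 2.30 in KO. The mean log2 signal of choroid plexus markers ranged over the samples from 8.41 to 12.13.

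Of the 35 genes, 22 were well above background in all 8 samples, 8 in some samples and 5 in none. The 22 comprised 5 alpha genes (Pcdha4, Pcdha8, Pcdha9, Pcdha12 and Pcdhac2), 16 beta genes and 1 gamma gene, Pcdhga9. The 8 genes measured in some samples were Pcdha11, Pcdhb2, Pcdhb5, Pcdhb8, Pcdhb11, Pcdhb19, Pcdhgb1 and Pcdhgc5. Each of these was well above background in 3 or 4 KO samples and in at most 1 WT sample, so they entered the tests through the KO samples, which carried the dye with the stronger signal, and no result is drawn from their ratios or tests. Pcdhac1, Pcdhb1, Pcdhga1, Pcdhga5 and Pcdhga10 were not well above background in any sample, and no ratio is given for them. Among all tested genes, 76.1% were well above background in all 8 samples, and among the tested clustered protocadherins 73.3%.

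The brightest probes of 3 genes are not specific to the gene they are named for. The Pcdhac2 probe (37347235 to 37347294) matched RefSeq transcripts of 4 alpha genes, Pcdhac2, Pcdha4, Pcdha9 and Pcdhac1. The Pcdhga9 probe (38001378 to 38001437) matched 4 gamma genes, Pcdhga9, Pcdhga1, Pcdhga5 and Pcdhga6, and the Pcdha8 probe (37154205 to 37154264) matched Pcdha8, Pcdha7 and Pcdha4. These probes therefore read transcripts of several genes. The matches are those of the accessions listed for each probe, so the 3 probes may read further genes of their clusters. The Pcdhga9 probe is the only gamma probe used here that was well above background in all 8 samples. The brightest probes of the other members matched 1 cluster gene each. No member probe of 60 bases shares a run of more than 12 bases with the probe of another member. That check sets probes against probes, so it does not show whether a probe also reads transcripts of other genes.

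In KO against WT, no clustered protocadherin passed an adjusted p of 0.05 in either tissue alone, and a single one, Pcdhb10, passed in the mean of both. In cortex 0 of 30 passed, where 0.0596% of all tested genes did, and limma gave an unadjusted p under 0.05 to 2 members and 3547 genes. For hippocampus the count was 0 of 30 against 0.0179% of genes, with 4 members and 3976 genes at an unadjusted p under 0.05. The 4 were Pcdhb3, Pcdhb21, Pcdhb5 and Pcdhb10, of which Pcdhb5 was not well above background in any WT sample and supports nothing. Here and below, the 30 include the 8 genes that entered the tests through the KO samples. In the mean of both tissues 1 of 30 passed against 10.9% of genes.

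Pcdhb10, a beta-cluster adhesion protein, rose in KO in the mean of both tissues. Its log2 signal in cortex was 7.95 and 8.25 in WT and 8.36 and 8.66 in KO on arrays 1 and 2. In hippocampus it was 8.16 and 8.52 in WT and 8.28 and 8.75 in KO. Every KO sample lay above the WT sample on its own array, while the groups did not overlap in cortex and overlapped in hippocampus. The log2 ratio was 0.41 on both cortex arrays, and hippocampus gave 0.12 and 0.23. The mean over both tissues was 0.29 ± 0.05 (SE, n = 4 arrays, 95% interval 0.17 to 0.42, adjusted p = 0.0379 in limma). In cortex alone it was 0.41 ± 0.07 (adjusted p = 0.0970) and in hippocampus alone 0.18 (adjusted p = 0.208), and the difference between the tissues was 0.23 ± 0.09 (interval -0.02 to 0.48). The call did not hold when any 1 array was left out (adjusted p = 0.166 without cortex array 1, 0.189 without cortex array 2, 0.0756 without hippocampus array 1 and 0.110 without hippocampus array 2), although the ratio kept to 0.26 to 0.32. With every local background value kept, including those marked as outlying, the mean was 0.13 (adjusted p = 0.289).

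**Figure D1:**
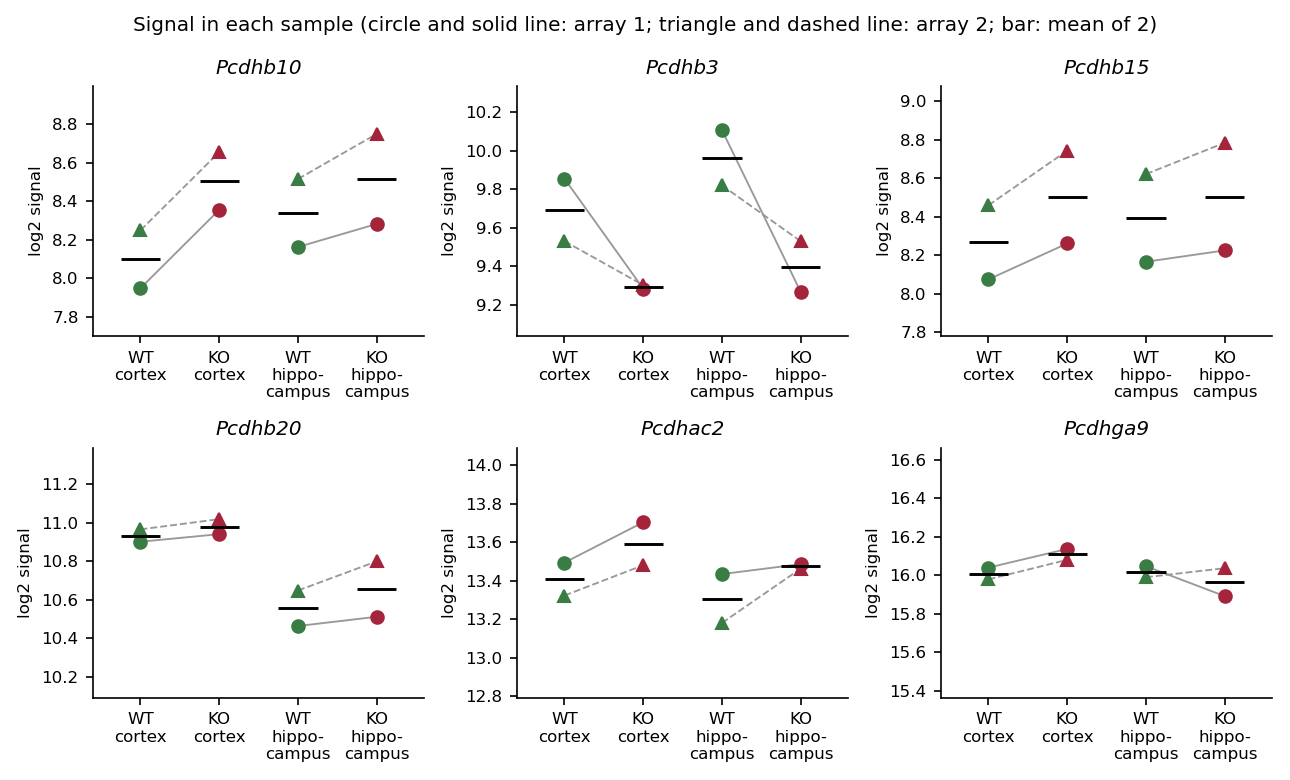
Log2 signal of 6 clustered protocadherin genes in each of the 8 samples, with a line joining the WT and KO sample of an array and a bar at the mean of 2; each panel spans the same log2 range around its own centre. Pcdhb10 lies higher in KO on all 4 arrays (log2 ratios 0.41, 0.41, 0.12 and 0.23), Pcdhb3 lower on all 4, and Pcdhb20 is higher in cortex than in hippocampus in both genotypes.

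Pcdhb3 had the largest ratio among the genes measured in all samples, in the opposite direction, without passing the test. Its log2 signal in cortex was 9.85 and 9.53 in WT and 9.28 and 9.30 in KO. In hippocampus it was 10.11 and 9.82 in WT and 9.27 and 9.53 in KO. KO and WT samples did not overlap in either tissue. The log2 ratios were -0.57 and -0.23 in cortex and -0.84 and -0.29 in hippocampus, a mean of -0.48 ± 0.12 (interval -0.79 to -0.18, adjusted p = 0.0657 in limma). Pcdhb3 is printed in 10 spots on each array, and the SD between these spots was 0.05, 0.02, 0.07 and 0.05. The ranges of the 10 spots did not overlap between the 2 arrays of a tissue (-0.68 to -0.49 against -0.26 to -0.19 in cortex, -0.93 to -0.71 against -0.38 to -0.21 in hippocampus), so the spread between arrays was larger than the spread between spots. Without hippocampus array 1 the mean was -0.35, and without hippocampus array 2 it was -0.62.

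Pcdhb5 was among the 3 genes of lowest p in the mean of both tissues, but it was not well above background in any WT sample, so its test supports nothing. Its log2 signal was 7.16, 6.67, 7.28 and 6.63 in WT cortex and hippocampus and 7.47, 7.25, 7.45 and 7.43 in KO. The KO values lay closer together than the WT values, which were near the lower limit of the Cy3 channel. Among the genes of the same kind only Pcdhb8 gave a lower bound above 1, of 1.06 for the signal of KO cortex over WT cortex. It set the mean KO cortex signal against the higher of the WT signal and the lowest signal well above background in WT cortex. Such bounds are open to dye bias. Pcdhb8 entered the tests through the KO samples, which carried the stronger dye, so its bound supports no difference between genotypes.

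Pcdhb15, another beta gene, also had KO above WT on every array. Its log2 signal was 8.07, 8.46, 8.16 and 8.62 in WT and 8.26, 8.74, 8.22 and 8.78 in KO for cortex 1, cortex 2, hippocampus 1 and hippocampus 2. The levels of the 2 arrays of a tissue differed more than the genotypes did, so the groups overlapped in both tissues. The mean log2 ratio was 0.17 ± 0.05 (adjusted p = 0.0882).

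In the alpha cluster, the Pcdhac2 probe, which reads transcripts of several alpha genes, was also higher in KO on all 4 arrays. Pcdhac2 is a C-type isoform, expressed without the random choice of the alpha genes that are not C-type. In the same order of samples, the probe had a log2 signal of 13.49, 13.32, 13.44 and 13.18 in WT. In KO it was 13.70, 13.48, 13.49 and 13.46, and the mean log2 ratio was 0.18 ± 0.06 (adjusted p = 0.116 in limma). The groups overlapped in cortex and were apart in hippocampus. The further probe that matched Pcdhac2 alone (37305687 to 37305745) gave log2 ratios of 0.24, -0.03, -0.12 and 0.12. The pattern on all 4 arrays was thus seen with the probe that matched several alpha genes and not with the probe that matched Pcdhac2 alone.

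Pcdha12 had log2 ratios of 0.08, 0.34, 0.06 and 0.38, and the mean was 0.21 (adjusted p = 0.148). Pcdha8, read with Pcdha7 and Pcdha4, had ratios of 0.20, 0.24, -0.11 and 0.38. Pcdhgc5, a C-type isoform of the gamma cluster, was well above background in KO alone, with a log2 signal of 6.68 to 6.95 in WT and 6.97 to 7.09 in KO.

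For the gamma cluster, the 2 probes named Pcdhga9 gave different signs. The brightest one, with a log2 signal of 15.89 to 16.14 over the 8 samples, had KO over WT ratios of 0.10, 0.10, -0.16 and 0.05, and its cortex mean of 0.10 had an interval of -0.10 to 0.30. The further probe (37999725 to 37999784), which matched 3 of the gamma genes, had ratios of -0.18, -0.16, -0.35 and 0.01. Over the 4 arrays the means were 0.02 and -0.17. The further probe was not tested.

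**Figure D2:**
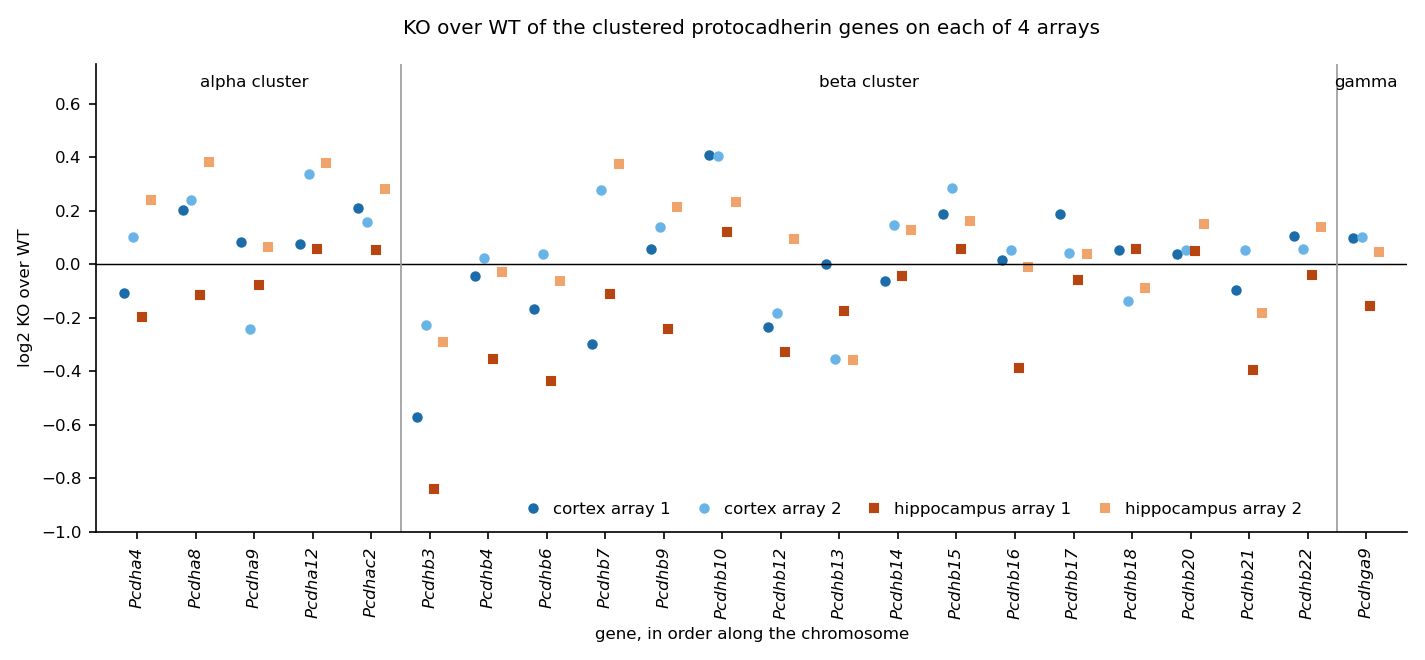
Log2 ratio of KO over WT on each of the 4 arrays (cortex circles, hippocampus squares) for the 22 clustered protocadherin genes well above background in all 8 samples, in order along the chromosome. Most genes scatter around 0, with Pcdhb10 above 0 and Pcdhb3 below 0 on all 4 arrays, and hippocampus array 1 lies lowest for most genes.

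Over all 22 genes, the KO over WT means ran from -0.40 (Pcdhb3) to 0.41 (Pcdhb10) in cortex and from -0.57 (Pcdhb3) to 0.22 in hippocampus, and 12 and 10 of 22 were above 0. The median was 0.04 in cortex and -0.01 in hippocampus, where all 12759 genes measured in all samples had 0.02 and 0.01. By cluster, the median of the 5 alpha genes was 0.18 in cortex and 0.13 in hippocampus, but in hippocampus it was -0.08 on array 1 and 0.28 on array 2. On the cortex arrays it was 0.08 and 0.16. With probes of 1 cluster gene for Pcdha8 and Pcdhac2, chosen after seeing the data, the alpha medians were 0.04 and 0.02. The Pcdha8 probe used there was well above background in all 4 KO samples and in no WT sample. No result is therefore drawn from these 2 medians. Neuron markers had medians of 0.19 in cortex (7 of 8 above 0) and 0.08 in hippocampus (5 of 8), and their part in the alpha medians was not tested. The median of the 16 beta genes was 0.01 and -0.01, with 8 and 6 of 16 above 0, and in hippocampus it was -0.14 on array 1 and 0.07 on array 2. With median centring in place of loess the beta median in hippocampus was 0.32, while the median of all tested genes on the 4 arrays moved from 0.03 to between 0.49 and 0.58.

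A single sign on all 4 arrays was seen for 6 of the 22 genes (27.3%), 5 of them higher in KO (Pcdha12, Pcdhac2, Pcdhb10, Pcdhb15 and Pcdhb20) and 1 lower (Pcdhb3), against 45.1% of all genes measured in all samples. Pcdhb20, among the 3 brightest beta genes, had log2 ratios of 0.04 and 0.05 in cortex and 0.05 and 0.15 in hippocampus, a mean of 0.07 ± 0.05 (adjusted p = 0.324, limma).

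No member passed in the difference of the KO over WT ratio between cortex and hippocampus, and 0% of all genes did. In limma, 0 members and 749 genes reached an unadjusted p under 0.05. The difference was 0.27 ± 0.12 for Pcdhb21 and 0.23 ± 0.15 for Pcdhb16, with intervals of -0.05 to 0.59 and -0.17 to 0.63. Pcdhb21 had log2 ratios of -0.09 and 0.05 in cortex and -0.40 and -0.18 in hippocampus, and its hippocampus mean was -0.29 ± 0.09 (adjusted p = 0.155). With 2 arrays per tissue, differences of this size were not resolved.

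Most of the 22 genes differed in the same direction between the 2 hippocampus arrays. The ratio of KO over WT was higher on hippocampus array 2 than on array 1 for 20 of the 22 genes (90.9%), all but Pcdhb13 and Pcdhb18, while 50.1% of all genes measured in all samples were higher on array 2. The median difference was 0.22 for the 22 genes and 0.00 for all genes. On array 1 the median ratio of the 22 genes was -0.11 and on array 2 it was 0.11, which is a shift between arrays of the same groups and has no test. The median of the 30 tested members was higher on array 2 under loess and under each of 4 other scalings, at 0.13 to 0.41 on array 2 and -0.08 to 0.04 on array 1. Those 30 include the genes well above background in some samples only, from whose ratios no result is drawn. These medians therefore do not show how the shift of the 22 genes depends on the scaling. In cortex 15 of 22 (68.2%) were higher on array 2, with a median difference of 0.05.

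The same 2 hippocampus arrays differed in the markers of other tissues. Choroid plexus markers had a median KO over WT log2 ratio of 0.08 on hippocampus array 1 (6 of 10 above 0) and -2.89 on array 2 (0 of 10 above 0). Their mean log2 signal was 8.41 and 12.13 in WT hippocampus and 8.49 and 9.16 in KO hippocampus, and at least 7 of 10 were well above background in each of these samples. The medians of thalamus markers were -0.10 and -1.02, those of oligodendrocyte markers 0.00 and -0.57, and those of leptomeninges markers -1.06 and -1.53. Striatum markers went the other way, from -0.24 (3 of 8 above 0) to 0.26 (6 of 8), as did neuron markers, from -0.02 (3 of 8) to 0.10 (7 of 8). The part of these tissues in the shift of the protocadherin genes was not tested. In cortex, choroid plexus markers had medians of 0.53 and 2.19, with 10 of 10 above 0 on both arrays.

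**Figure D3:**
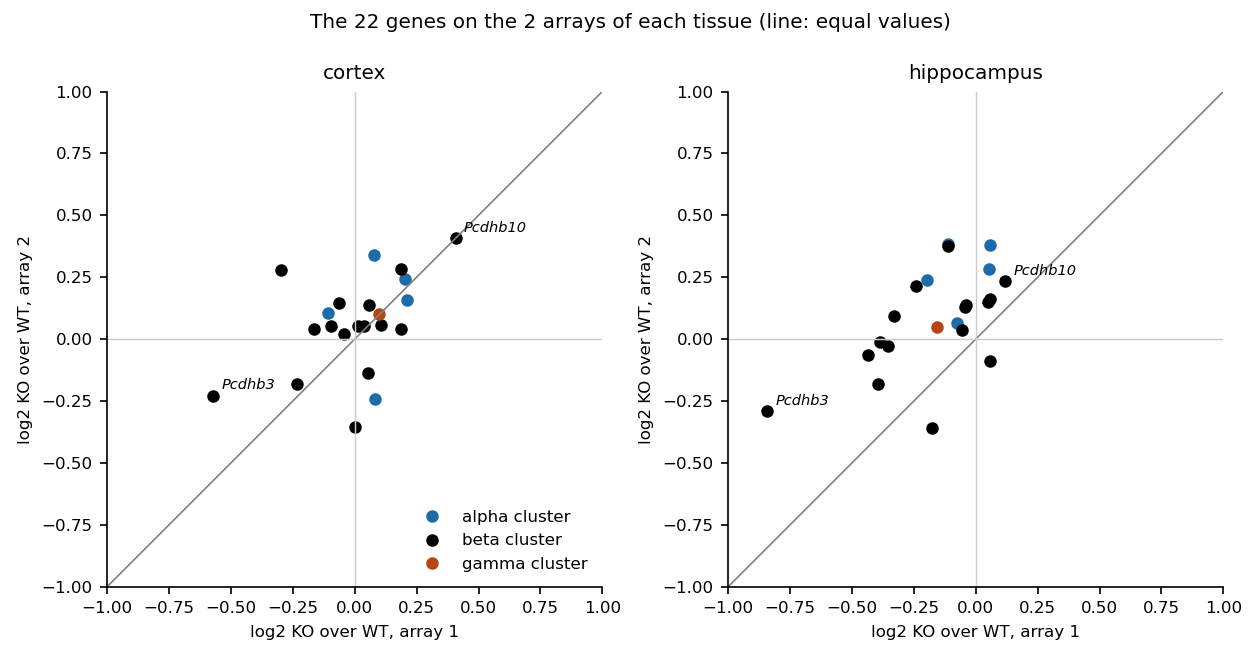
Log2 ratio of KO over WT on array 2 against array 1 of each tissue for the 22 genes well above background in all 8 samples, coloured by cluster; the diagonal marks equal values. In hippocampus 20 of 22 genes lie above the diagonal, and in cortex 15 of 22.

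Between the tissues, no clustered protocadherin passed in either genotype. In WT 0 of 30 passed, where 14.9% of all tested genes did, and in KO 0 of 30, where 14.8% did. An unadjusted p under 0.05 was reached by 3 members and 4850 genes in WT and 4 members and 4741 genes in KO (limma). The SD of the cortex over hippocampus ratios across the 22 genes was 0.24 in WT and 0.21 in KO, and across all genes measured in all samples 0.38 and 0.39. The quartiles of the 22 genes were -0.26 and 0.10 in WT, against -0.15 and 0.11 for all genes. In KO they were -0.14 and 0.16 against -0.14 and 0.13. The middle part of the 22 genes was thus not narrower, and all genes in WT ran from -4.47 to 4.48.

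Pcdhb20 had the lowest p in WT and was higher in cortex. Its log2 signal was 10.90 and 10.97 in WT cortex and 10.46 and 10.65 in WT hippocampus, and in KO it was 10.94 and 11.02 against 10.51 and 10.80. The tissues did not overlap in either genotype. The log2 ratio of cortex over hippocampus was 0.38 ± 0.11 in WT (interval 0.12 to 0.63, adjusted p = 0.0604 in limma) and 0.32 ± 0.11 in KO (adjusted p = 0.0969). Without hippocampus array 2 the ratio was 0.47 in WT and 0.47 in KO. Without hippocampus array 1 it was 0.29 in WT and 0.18 in KO, so its size depended on the hippocampus array used.

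Pcdhb16 and Pcdhb18 lay lower in cortex. Pcdhb16 had a log2 signal of 9.29 and 9.46 in WT cortex and 9.86 and 9.70 in WT hippocampus, a ratio of -0.40 ± 0.12 (adjusted p = 0.0696). In KO its samples overlapped (9.31 and 9.51 against 9.47 and 9.69). Pcdhb18 was apart in both genotypes, with ratios of -0.28 ± 0.10 in WT (adjusted p = 0.105) and -0.31 ± 0.10 in KO (adjusted p = 0.0812).

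Pcdhb21 was apart in KO alone, at 11.00 and 10.93 in cortex and 10.62 and 10.64 in hippocampus, a ratio of 0.33 ± 0.10 (adjusted p = 0.0748). In WT its ratio was 0.07 ± 0.10, with cortex at 11.09 and 10.87 and hippocampus at 11.01 and 10.82. Whether this tissue ratio differs between genotypes is the same contrast as the difference given above for Pcdhb21, which did not pass.

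Samples of cortex and hippocampus did not overlap for 9 of the 22 genes (40.9%) in WT and 7 (31.8%) in KO, against 57.5% and 61.5% of all genes measured in all samples. In WT, 7 of the 9 were lower in cortex, all of them beta genes (Pcdhb4, Pcdhb6, Pcdhb7, Pcdhb9, Pcdhb14, Pcdhb16 and Pcdhb18), and Pcdha4 and Pcdhb20 were higher. Beta genes make up 16 of the 22. Of all genes apart in WT, 4125 were lower in cortex and 3209 higher, and in KO 4099 and 3743. In KO, Pcdhb7 and Pcdhb18 were lower, and Pcdha12, Pcdhb13, Pcdhb20, Pcdhb21 and Pcdhga9 were higher. Pcdhb7, Pcdhb18 and Pcdhb20 were thus apart in the same direction in both genotypes. The share of all genes apart in the same direction in both was not counted, so no result is drawn from these genes, none of which passed.

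The median of the alpha genes was above 0 and that of the beta genes below 0 in both genotypes, though in KO the beta median was close to 0. All 5 alpha genes had a mean above 0 for cortex over hippocampus in both genotypes, from 0.10 to 0.37 in WT and from 0.12 to 0.36 in KO, with medians of 0.17 and 0.19. The largest was Pcdha12, at 0.37 in WT (adjusted p = 0.328) and 0.36 in KO (adjusted p = 0.355). The brightest probes of Pcdha8 and Pcdhac2 match transcripts of other alpha genes, so these 5 values are not separate measurements. Of the 16 beta genes, 5 were above 0 in WT and 6 in KO, with medians of -0.18 and -0.02. In KO the beta median was 0.02 without cortex array 1, 0.08 without hippocampus array 2, -0.16 without cortex array 2 and -0.26 without hippocampus array 1, so its sign turned with the arrays used. The medians over all genes measured in all samples were -0.03 in WT and -0.01 in KO. These medians are a description, and no gene of either cluster passed the test.

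**Figure D4:**
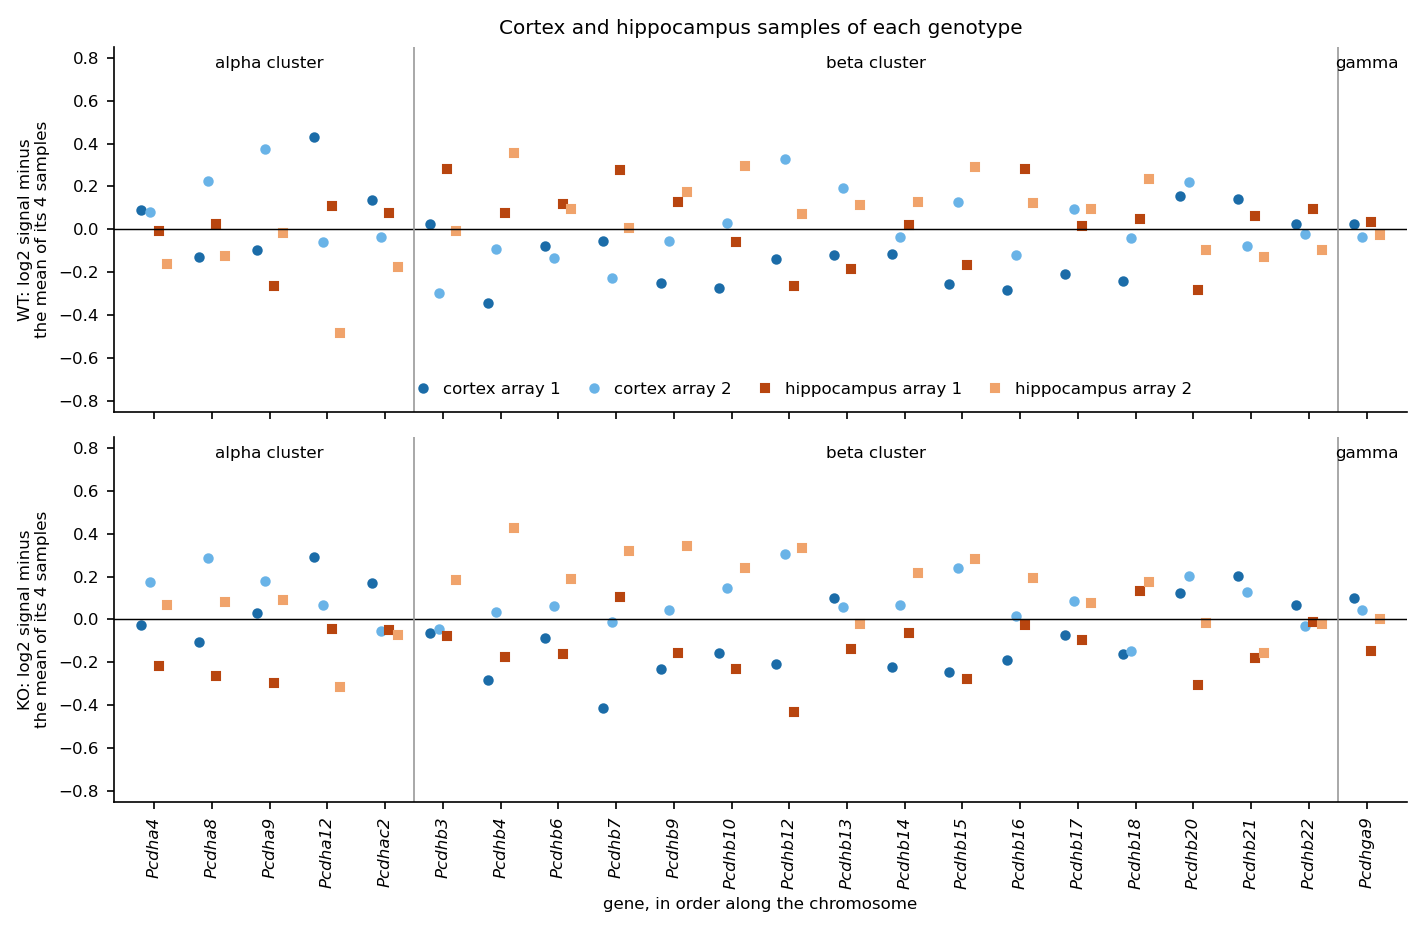
Log2 signal in each cortex (circles) and hippocampus (squares) sample for the 22 genes, as the difference from the mean of the 4 samples of the same genotype (WT above, KO below), in order along the chromosome. Pcdhb20 lies higher in both cortex samples and Pcdhb7 and Pcdhb18 lower in both, in WT and in KO, and none of these genes passed the test.

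Along the beta cluster, the cortex over hippocampus ratio and the position had a Spearman's rho of 0.52 in WT and 0.50 in KO across 16 genes. The median of the 8 genes from Pcdhb3 to Pcdhb13 was -0.26 in WT and -0.07 in KO, and that of the 8 genes from Pcdhb14 to Pcdhb22 was -0.12 and 0.01. For single pairs of a cortex and a hippocampus array, rho ran from -0.03 to 0.62. The genes share the arrays and are not independent, so these values only describe the samples at hand.

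Some protocadherins outside the clusters, each encoded by a gene of its own, passed between the tissues in the same samples. The list tested held 19 genes. It also included Fat1, Fat3, Fat4, Dchs1, Celsr1, Celsr2 and Celsr3, cadherin genes that are not named Pcdh. Of the 19, 4 rose and 5 fell in cortex relative to hippocampus in WT, and 2 rose and 5 fell in KO. Among all tested genes, 14.9% passed in WT and 14.8% in KO. Fat4 (-1.16 in WT and -1.06 in KO) was among those that fell. Pcdh20 had a log2 ratio of -2.76 ± 0.08 in WT and -2.78 ± 0.08 in KO. Pcdh19 (-1.04 and -1.07) and Pcdh8 (-0.82 and -1.12) were also lower in cortex, and Pcdh7 (1.14 and 0.93) and Pcdh10 (0.90 and 0.83) were higher. Pcdh20 in both genotypes and Pcdh10 in WT passed with any 1 array left out. Leaving out cortex array 1 ended the calls of Pcdh7 (adjusted p = 0.121 in WT and 0.220 in KO), Pcdh19 (0.0745 and 0.0695) and, in KO, Pcdh8 (0.0638). Leaving out cortex array 2 did so too (Pcdh7 0.108 and 0.144, Pcdh19 0.0514 and 0.0552, Pcdh8 in KO 0.0630). Pcdh8 in WT and Pcdh10 in KO passed with all arrays and were not tried with an array left out. The largest tissue ratios of the 22 clustered genes were 0.38 and -0.43 in WT.

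**Figure D5:**
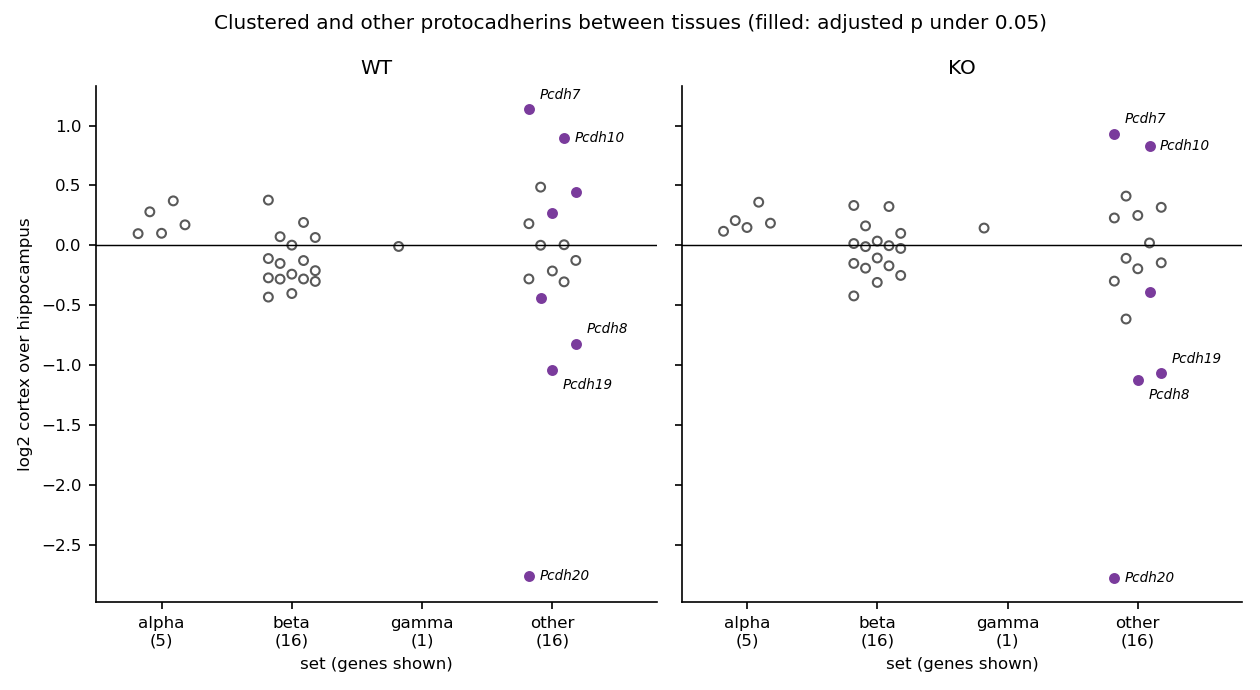
Log2 ratio of cortex over hippocampus in WT and in KO for the genes well above background in all 8 samples, 5 of the alpha, 16 of the beta and 1 of the gamma cluster. Beside them are 16 genes of the list of other protocadherins, which also holds Fat, Dchs and Celsr genes. Filled points have an adjusted p under 0.05 in limma. The clustered genes lie between -0.43 and 0.38, and filled points occur among the genes of that list, down to -2.78 for Pcdh20.

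In KO against WT, 1 of the same 19 listed genes passed in the mean of both tissues, where 10.9% of all tested genes did. None passed in either tissue alone. Pcdh17 fell by 1.05 on the log2 scale (SE 0.21, adjusted p = 0.0473), with ratios of -0.67 and -1.74 in cortex and -0.60 and -1.19 in hippocampus. It was lower in KO on 4 of 4 arrays, but did not pass without any 1 of the 4 arrays (adjusted p 0.0886 to 0.151, ratios -1.32 to -0.78).

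Of 26 genes listed as regulators of the clustered protocadherins, 25 were tested. The list holds Ctcf, the cohesin subunits Rad21, Smc1a and Smc3, and the methyltransferases Dnmt1, Dnmt3a and Dnmt3b. It also holds other chromatin and transcription factors, among them Rest, Znf143 (Zfp143), Setdb1, Smchd1, Cbx5 and Ehmt2. Whether each listed gene acts on the choice of clustered protocadherin promoters was not tested. None of the 25 passed in KO against WT in either tissue or between the tissues in either genotype. In the mean of both tissues, where 10.9% of all tested genes passed, 1 of the 25 fell. This was Tdg, the glycosylase that removes oxidised methylcytosine, which fell by 0.22 (SE 0.04, adjusted p = 0.0483 in limma). With the mean of all its probes in place of the brightest one, its ratio was 0.13, and leaving out any 1 array ended the call (adjusted p 0.0876 to 0.243). It passed in 4 of 15 alternatives.

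Of 25 cytoplasmic and membrane partners of the clustered protocadherins, none passed in KO against WT in either tissue. In the mean of both tissues, where 10.9% of all tested genes passed, the kinase Fyn fell by 0.22 (adjusted p = 0.0489 in limma). The small GTPase Rhoa rose there by 0.26 (adjusted p = 0.0499). Both calls were lost without any 1 array (adjusted p 0.0873 to 0.232 for Fyn, 0.0989 to 0.238 for Rhoa), and with median centring the ratio of Fyn was 0.36. The ratio of Rhoa was 0.09 with the mean of all its probes (adjusted p = 0.239) and 0.14 with all local backgrounds kept (adjusted p = 0.378). Each of the 2 genes passed with the same sign in 5 of 15 alternatives, and Fyn also passed with the opposite sign under median centring.

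Between the tissues, 8 of the 25 partners fell and 1 rose in cortex in WT, and 7 fell and none rose in KO, beside the 14.9% and 14.8% of all tested genes that passed. The kinase Ptk2b, which the clustered protocadherins bind and inhibit, had a log2 ratio of cortex over hippocampus of -0.91 in KO and passed in WT as well. The protein kinase C genes Prkca (-0.97 and -0.91) and Prkcc (-0.90 and -0.69) and the actin regulators Cyfip1 (-0.77 and -0.75) and Wasf1 (-0.72 and -0.63) were lower in cortex in both genotypes, and Marcks was higher in WT (0.55). Prkca and Cyfip1 passed with any 1 array left out in both genotypes. Without cortex array 1 the calls of Ptk2b (adjusted p = 0.0682 in WT and 0.0923 in KO), Prkcc (0.0790 and 0.131) and, in KO, Wasf1 (0.139) were lost. Without cortex array 2 those of Ptk2b (0.0716 and 0.0871) and, in KO, Prkcc (0.0895) and Wasf1 (0.120) were lost, and without hippocampus array 2 that of Prkcc in KO (0.0529). Wasf1 and Marcks in WT were not tried with an array left out.

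None of the 6 tested genes within 150 kb of the clusters passed in any comparison. Taf7, a general transcription factor subunit gene that lies between the beta and gamma clusters on the minus strand (37802341 to 37802400), had KO over WT ratios of -0.06 in cortex and 0.02 in hippocampus. Diap1 (38004496 to 38004555) and Hdac3 (38096655 to 38096714), downstream of the gamma cluster, had 0.04 and 0.09 and 0.08 and 0.04.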

How the data were processed

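Labelled RNA of 8 samples (0.5 µg total RNA each) was hybridised to 4 two-colour arrays, 1 WT (Cy3) and 1 KO (Cy5) sample on each, all on 1 slide and from 1 scan, so there was no batch to test. The clustered protocadherin genes and the gene lists were chosen with earlier results of these data known. Per the file headers, Feature Extraction 10.1.1.1 produced the deposited scanner intensities, and its files give gene names and mm9 positions. The authors also deposited log2 values per channel, used as an alternative; how they were made is not given in the sources used here beyond limma, which the submitters' processing notes name.

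Mean signals were corrected with normexp (offset 50) in limma 3.58.1 (R 4.3.3, with the data.table package, version 1.17.8). Local backgrounds marked as outlying were replaced by the median of the array, a choice made with earlier results known. Arrays were normalised with loess (span 0.3, control spots at weight 0), and channel values with Aquantile. A log2 ratio is KO over WT on an array, and a log2 signal a channel value. Spots of a probe were averaged. A probe was well above background in a sample if at least 0.5 of its spots were marked so. A gene was tested if this held in both samples of at least 1 group, and 27 genes with outlying spots were dropped, so that 16773 remained. Names of 14912 genes matched RefSeq, used for names only.

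KO and WT were compared with lmFit and eBayes on the 4 log2 ratios, with 1 mean per tissue and 2 residual plus 2.62 prior degrees of freedom. The tissues were compared within a genotype, and so within a dye, with a separate-channel fit (intraspot correlation 0.189). P-values were adjusted by Benjamini-Hochberg over all tested genes, and intervals are 95%. The fits were tested on simulated data. Genes named are the C-type genes, the 3 brightest of each cluster, those that passed or else the 3 of lowest p in each comparison, and up to 5 passing genes per list. The few other members were named after their values were seen. Precision is limited by the number of arrays. Alternatives changed the background, the normalisation, the filter, the probe rule, the prior, the replicate block and the arrays used.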

Additional observations from a re-analysis of the deposited data

Results flagged for a closer look

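Of 7 probes at the clusters that carry no gene name, and enter none of the comparisons, 4 were well above background in a sample, 1 was above WT on all 4 arrays and 4 were below WT on all 4. The probe above WT, A_55_P2126050, lies on the plus strand of chromosome 18 at 37894913 to 37894971 (mm9), between the probes of Pcdhga5 and Pcdhga10. Its mean log2 ratio of KO over WT was 0.36, with 0.29 and 0.55 in cortex and 0.54 and 0.07 in hippocampus. It was well above background in 1 KO sample and in no WT sample, so the ratio compares signals near the lower limit of both channels. Of the probes below WT, A_52_P674331 (37818019 to 37818078) had a mean of -0.44 and was well above background in all 4 KO samples and in no WT sample. None of the 7 was tested.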

How the results depend on the processing

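In 16 alternatives, the number of clustered protocadherin genes called was within 1.5 times the value reported in 75 results and not in 17. In the mean of both tissues (1 reported), it was 0 with all local backgrounds kept (3 genes in all), 0 with an intensity trend and robust prior (0 genes in all), 3 with no filter on dim probes, 4 with the replicate block and 0 with each array left out (range 0 to 0). With median centring it was 20 in cortex, 19 in hippocampus and 20 in the mean, as 81.8%, 79.6% and 86.3% of all genes were called and the median of all genes moved to 0.49 to 0.58; against that shift, Pcdhb10 (0.44) lay below the median. In cortex over hippocampus (0 reported), WT gave 1 with the strict filter, 1 with the trend prior and 0 to 1 with an array left out. KO gave 4 with the replicate block, 2 with the channels of one genotype alone and 0 to 1 with an array left out, where the intraspot correlation of all 4 arrays was kept.

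Under median centring these ratios of KO over WT turned sign: Pcdhb21 (0.60 in cortex, 0.32 in hippocampus, 0.46 in the mean), Pcdhb6 (0.49, 0.32 and 0.40), Pcdhgc5 (-0.45, -0.44 and -0.44), Pcdhga9 (0.99 in hippocampus) and Fyn (0.36 in the mean). Tdg (0.13 in the mean) did so with the mean of all probes. The cause was not tested. Of the other values of named genes, 1144 kept side and sign, 28 passed newly, 72 no longer passed and 46 had another sign but passed in neither fit. Using probes of 1 cluster gene for Pcdha8 and Pcdhac2, an alternative chosen after seeing the data, changed no count. Counts over all genes moved more: in cortex and hippocampus from 10 and 3 to 138 and 372 with the signals as processed by Feature Extraction, 22 and 16 with the authors' deposited table, and 153 and 418 with the replicate block.

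Same-numbered samples of the 2 tissues deviated together with r = 0.17 for the ratios, -0.08 in WT and 0.24 in KO; the labels do not say whether they share an animal, so the numbers were not taken as pairs. The replicate block called Pcdhb10 and Pcdhb3 in the mean, with Pcdhb5 and Pcdhb8, which passed the filter through KO samples and support nothing, and Pcdha12, Pcdhb7, Pcdhb18 and Pcdhb21 between tissues in KO; without any block, 1 gene, Pcdhb3, was called in the mean (adjusted p = 0.0300). No dye swap and 2 arrays per tissue limit all ratios, and the weaker Cy3 signal (1.35 to 1.43 times the negative controls, against 3.24 to 3.66 in Cy5) limits those of dim genes in WT.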
